A study of Mus musculus with 16 samples.

Results

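Transcripts of ovulated Psma7 cKO eggs were compared with those of WT eggs over all entries of one expression table. The comparison uses the 8 MII libraries of the 16 in the series, 4 of each genotype, chosen by the stage and genotype in their labels. Eggs here are oocytes arrested at the second meiotic metaphase (MII). They were flushed from the oviducts of mice aged 3 to 4 weeks that had received 5 IU PMSG, then hCG 44 h later, and were collected 14 to 16 h after hCG. Cumulus cells were removed with 0.3% hyaluronidase. WT eggs are labelled wildtype. The cKO eggs have the genotype Zp3-Cre; Psma7 flox/flox, in which the Zp3 promoter drives Cre recombinase in growing oocytes and the floxed Psma7 gene is removed there, while follicular cells keep it. Because all cKO libraries carry both the deletion and the transgene, and the labels name neither in WT, effects of the deletion and of the transgene cannot be told apart. Each library came from a pool of 5 cells according to the labels, whereas the study's methods state a larger pool. In a pool, a few cells at another stage and a smaller change in every cell cannot be told apart. The study describes cKO oocytes that did not finish the first meiotic division after superovulation, and whether any of them entered these pools is not given in the sources used here.

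The 20S proteasome is a barrel of stacked rings that degrades proteins marked with ubiquitin, and Psma7 encodes one subunit of its outer rings. The 19S particle caps the barrel, recognises ubiquitin chains and unfolds the substrate. A fully grown oocyte stores maternal mRNA, and during maturation transcription is silent while many stored mRNAs lose their poly(A) tails and are degraded. The cDNA was primed on poly(A), so tail length also bears on what was measured, and the tables hold shares of a library rather than amounts per egg.

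The 4 WT egg libraries resembled each other closely, and the 4 cKO libraries spread more widely. The table gives FPKM, fragments scaled to transcript length and to the mapped fragments of the library, for 28618 entries under 27987 gene names. Depth, estimated from the steps between low values on the assumption that whole transcript lengths were used, was 12.4 to 14.6 M fragments in WT and 12.8 to 14.7 M fragments in cKO libraries. Entries at 1 FPKM or more numbered 9044 to 9366 in WT and 9387 to 10013 in cKO libraries, with no overlap (two-sided exact permutation test, p = 0.0286, the smallest that 4 against 4 libraries can give). The root mean square distance from the WT mean on the log2 scale was 0.260 to 0.333 for WT libraries, each measured against the other WT libraries. It was 0.495, 0.364, 0.778 and 0.537 for cKO replicates 1 to 4, so cKO replicate 3 stood farthest away and cKO replicate 2 nearest. For cKO libraries this distance holds the genotype difference as well as the spread between replicates. Correlations between libraries of the same genotype on the log2 scale were 0.984 to 0.99 in WT and 0.96 to 0.985 in cKO, with a slight overlap. The oocyte markers, such as Gdf9, Bmp15, Dazl and H1foo, summed to 12800 to 15400 FPKM in WT and 14200 to 16400 FPKM in cKO libraries. Of the 19 cumulus and granulosa marker entries, 17 stayed under 1 FPKM in all libraries of both genotypes, and their sums were 17.9 to 22.6 FPKM in WT and 20.4 to 21.6 FPKM in cKO. Amh, Amhr2 and Foxl2, which define granulosa cells, were listed at 0 in all 8 libraries. Cyp19a1 and Kitl of the same list were detected and supplied most of these sums. Cyp19a1 ranged from 12.6 to 14.2 FPKM in WT and from 12.0 to 15.2 FPKM in cKO libraries. For Kitl the ranges were 4.33 to 7.16 FPKM and 5.33 to 6.56 FPKM. Blood cell markers summed to 1.73 to 11.0 FPKM in WT and 1.26 to 3.83 FPKM in cKO libraries, where Lyz2 in WT replicate 1 supplied most of the highest sum. Of the embryo markers, Tcstv1 and Tcstv3 had log2 differences of -0.34 and -0.32 that did not pass, and Zfp352 and Usp17lc stayed near 0 FPKM.

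Psma7 transcript was lower in all 4 cKO libraries than in any WT library (ENSMUSG00000027566.15, minus strand of chr2:180036374-180042433, GRCm38). WT eggs held 118.5, 115.9, 97.7 and 172.1 FPKM, against 13.6, 50.3, 35.0 and 59.9 FPKM in cKO eggs, in the order of the replicate numbers. The means were 126 ± 32.1 and 39.7 ± 20.2 FPKM (SD, n = 4 each), and the log2 difference was -1.83 (SE 0.41, limma adjusted p = 0.0359). cKO replicate 1 held the least Psma7 and cKO replicate 4 the most, although neither was the library farthest from WT. In GV oocytes, the stage before maturation, the means were 165 ± 25.3 FPKM in WT and 14.6 ± 2.82 FPKM in cKO libraries. Fragments from any part of the gene that the deletion leaves in place would still be counted, so the remaining FPKM values give no share of intact mRNA.

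Of the 9492 transcripts that averaged 1 FPKM or more across these libraries, 761 (8.02%) passed limma's adjusted p of 0.05, 620 (6.53%) higher and 141 (1.49%) lower in cKO eggs. The higher transcripts encoded ribosomal proteins, nuclear-encoded mitochondrial proteins, proteasome subunits, splicing proteins and egg surface proteins, among others. The lower transcripts included Psma7 itself and 4 mitochondrially encoded mRNAs. Changes were larger upwards than downwards. The median log2 difference was 0.85 for the higher and -0.44 for the lower calls, against 0.07 for all tested transcripts. In all, 225 of the higher and 7 of the lower calls differed more than 2-fold. The plot of log2 difference against abundance shows that the higher calls lie at all levels and that Mt1 stands alone at the top.

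**Figure D1:**
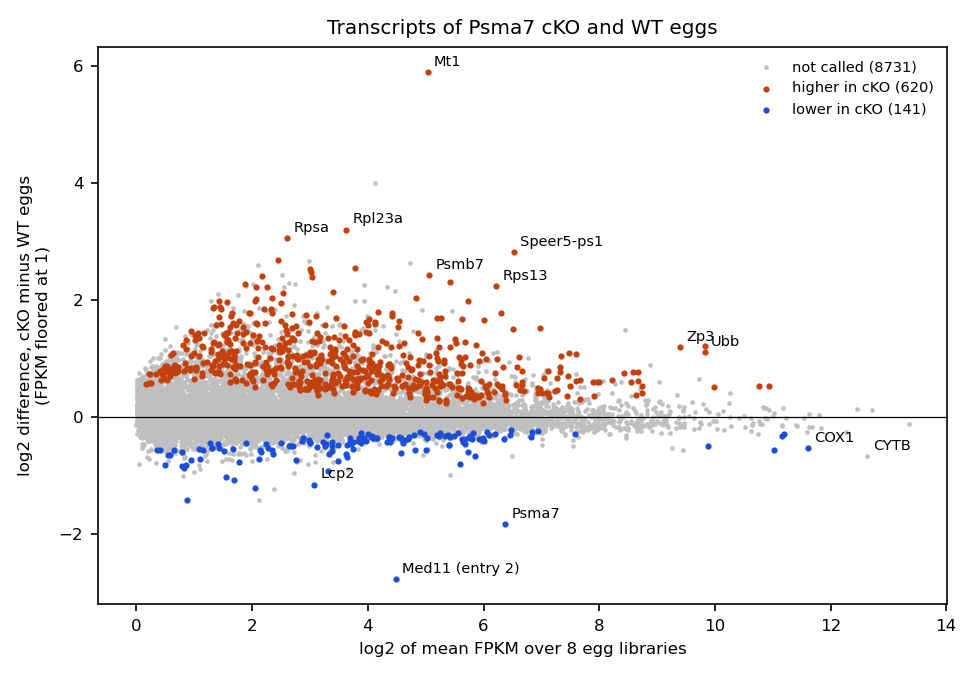
Each point is 1 of the 9492 tested transcripts, with the log2 of its mean FPKM over 8 egg libraries on the horizontal axis and the log2 difference of cKO minus WT eggs, with values floored at 1 FPKM, on the vertical axis. The 620 higher calls (orange) reach a log2 difference of 5.89 at Mt1, and the 141 lower calls (blue) reach -2.76 at the second Med11 entry.

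Most calls sat just inside the threshold, and the number called rested on single libraries. Adjusted p lay between 0.03 and 0.05 for 569 of the 761 calls and below 0.01 for 3, which were Mt1, Rpsa and Speer5-ps1. Without WT replicate 3 only those 3 transcripts were called, and 12 higher and 0 lower were called without WT replicate 1. At an unadjusted p under 0.05, those fits held 1677 higher and 737 lower transcripts without WT replicate 3, and 1557 and 565 without WT replicate 1, against 1952 and 835 with all libraries. Leaving out WT replicate 2 left 109 higher and 5 lower calls, leaving out WT replicate 4 left 31 and 8, leaving out cKO replicate 1 left 166 and 31, and leaving out cKO replicate 4 left 360 and 58. Without cKO replicate 3, which stood apart, 287 higher and 30 lower calls were made, of which 276 and 29 belonged to the calls above. Without cKO replicate 2, the nearest to WT, 1024 higher calls were made. Higher calls formed 81.5% of all calls with FPKM as deposited, 65.7% after rescaling libraries by the median ratio, and 60.5% after leaving out mitochondrially encoded transcripts and rescaling.

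The size of these differences varied between the cKO replicates. For the 620 higher calls, the median log2 distance from the WT mean was 0.85, 0.57, 1.15 and 0.73 in cKO replicates 1 to 4. cKO replicate 3 was the highest cKO library for 449 of them and cKO replicate 2 the lowest for 385. For the 141 lower calls the corresponding medians were -0.49, -0.40, -0.43 and -0.38, a narrower spread, and cKO replicate 1 was the lowest library most often, for 61 of them. All 4 cKO values lay above all 4 WT values for 606 of the 620 higher calls and below them for 140 of the 141 lower calls. Over all tested transcripts, 1293 (13.6%) were higher and 670 (7.06%) lower without overlap. The simpler rule of a 3-fold difference between means, with values below 1 FPKM set to 1, gave 167 entries higher (0.584% of all 28618) and 2 lower (0.00699%). The 2 lower entries were Psma7 and the second entry of Med11. Of the 167 higher entries, 75 were also called by limma and 122 had all cKO values above all WT values. Without cKO replicate 3 the same rule gave 62 higher entries.

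Mt1, a metallothionein that binds zinc and copper, had the largest difference of any tested transcript (ENSMUSG00000031765.8, plus strand of chr8:94179082-94180327, GRCm38). WT eggs held 0.106, 0.180, 0.184 and 0.200 FPKM, and cKO eggs held 51.9, 33.2, 113.1 and 63.0 FPKM. The groups were far apart, and the log2 difference with values floored at 1 FPKM was 5.89 (SE 0.31, limma adjusted p = 0.000105), past the threshold in all 20 alternative fits. The same contrast was present before maturation, where WT GV oocytes averaged 0.230 ± 0.161 FPKM and cKO GV oocytes 167 ± 34.2 FPKM. Mt2, its neighbour on chromosome 8 and a metallothionein with the same binding role, was listed at 0 in all 8 egg libraries, as was Mt3. Mt4 ranged from 18.8 to 26.8 FPKM in WT and from 17.7 to 23.8 FPKM in cKO eggs. Mtf1, the zinc-sensing factor that activates metallothionein genes, ranged from 3.30 to 4.58 and from 4.15 to 5.35 FPKM, and Slc30a1, another of its known targets and a zinc exporter, stayed at or below 0.155 FPKM. Of the 10 tested members of the metallothionein and zinc transporter list, 1 rose, which was Mt1, and none fell. Among all tested transcripts 6.53% were called higher, so this count is not read as a result. For Mt1 too, effects of the deletion and of the transgene cannot be told apart. FPKM values do not show which part of a gene its fragments match, and whether these came from the chromosomal Mt1 gene was not tested.

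Because Mt1 and Mt2 are known to be activated together through metal response elements, their promoter windows are shown, each running from 250 bases before to 50 bases after the annotated start on the plus strand (RefSeq, GRCm38.p6). Capitals mark the letters TGCACNC or TGCGCNC, the core of a metal response element, on either strand. The windows are chr8:94178839-94179138 for Mt1 and chr8:94172368-94172667 for Mt2.
Mt1: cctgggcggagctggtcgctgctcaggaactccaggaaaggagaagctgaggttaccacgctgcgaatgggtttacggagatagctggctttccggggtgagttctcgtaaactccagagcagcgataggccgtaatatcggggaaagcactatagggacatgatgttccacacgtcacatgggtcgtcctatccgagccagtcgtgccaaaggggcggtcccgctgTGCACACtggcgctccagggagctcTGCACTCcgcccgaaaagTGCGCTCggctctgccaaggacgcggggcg
Mt2: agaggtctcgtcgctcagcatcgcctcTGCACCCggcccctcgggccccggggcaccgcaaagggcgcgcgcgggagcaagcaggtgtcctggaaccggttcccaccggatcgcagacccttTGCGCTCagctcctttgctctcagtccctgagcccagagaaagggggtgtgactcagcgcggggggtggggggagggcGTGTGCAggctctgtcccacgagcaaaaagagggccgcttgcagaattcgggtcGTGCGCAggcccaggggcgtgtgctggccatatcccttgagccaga
The Mt1 window held 3 matches and the Mt2 window 4. At least 1 match was present in 25.7% of the 32851 promoter windows in the table, at least 3 in 1.97% and at least 4 in 0.517%. A match is a description of these letters and not evidence of binding, and no cause of the Mt1 difference was tested.

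**Figure D2:**
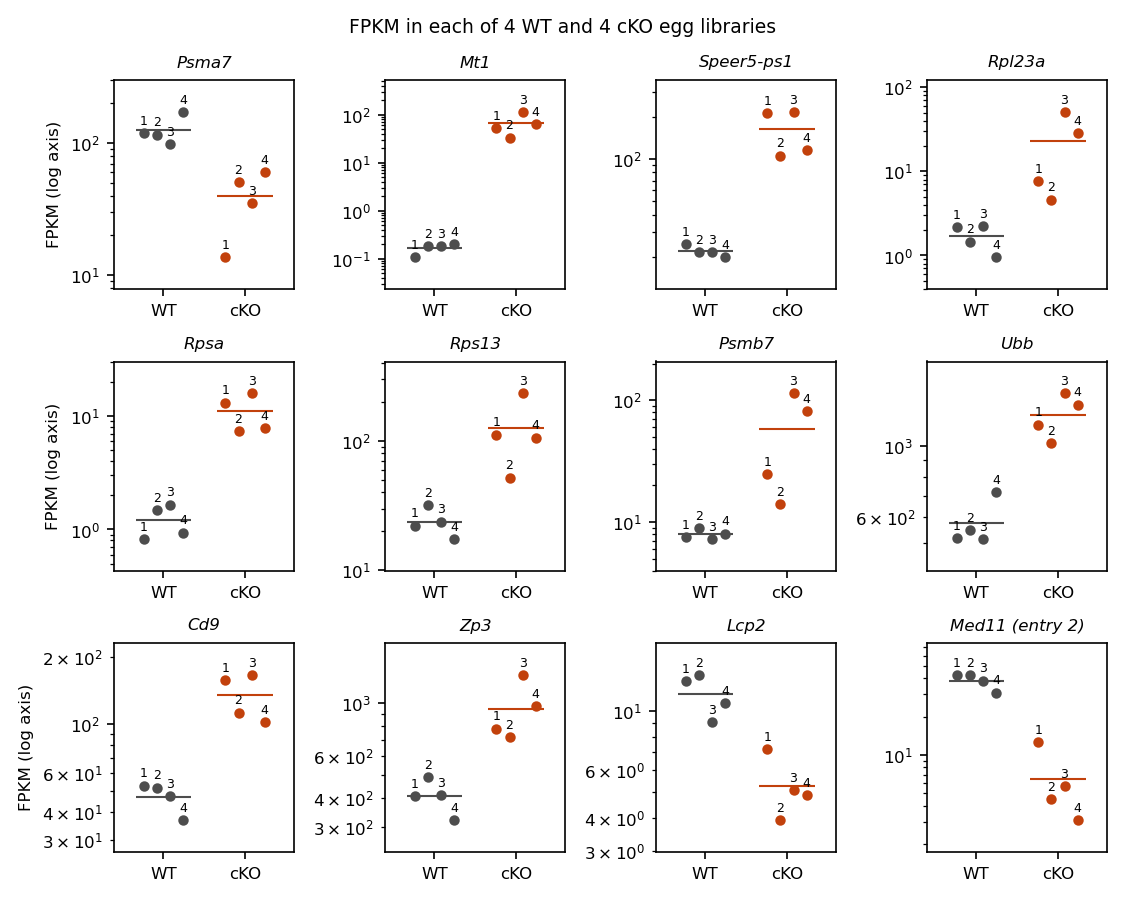
FPKM on a log axis for 12 transcripts in the 4 WT (grey) and 4 cKO (orange) egg libraries, with each point numbered by its replicate and the line at the group mean. Mt1, Speer5-ps1 and the ribosomal protein transcripts lie above all WT values in every cKO library, with replicate 3 highest for Mt1, Rpl23a, Rpsa, Rps13 and Psmb7, whereas Psma7, Lcp2 and the second Med11 entry lie below.

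Transcripts for the cytosolic ribosome were higher in cKO eggs. Of 44 tested large subunit transcripts, 12 rose, none fell and 32 did not pass the test, with a median log2 difference of 0.80. For the small subunit, 12 of 30 rose, none fell, and the median was 0.88. These medians compare with 0.07 over all tested transcripts, and the counts with 6.53% of them called higher. cKO replicate 3 had a median distance from WT of 1.53 for large and 1.91 for small subunit transcripts, and cKO replicate 2 had 0.45 and 0.51. Without cKO replicate 3, 8 and 10 members were called higher, and the medians were 0.58 and 0.69. Without WT replicate 3, 0 and 1 were called.

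Rpl23a, a protein near the exit of the peptide tunnel of the large subunit, showed the widest spread. WT eggs held 2.17, 1.47, 2.25 and 0.948 FPKM and cKO eggs held 7.66, 4.62, 50.8 and 28.5 FPKM, so that replicates 3 and 4 exceeded the other cKO libraries several-fold. The log2 difference was 3.20 (SE 0.70, limma adjusted p = 0.0333). Rpsa, a small subunit protein also known as the laminin receptor, was more even, at 0.826, 1.47, 1.65 and 0.937 FPKM in WT and 13.1, 7.32, 15.8 and 7.81 FPKM in cKO eggs. Its log2 difference was 3.06 (SE 0.29, limma adjusted p = 0.00572), and it stayed past the threshold in all 20 alternative fits. Rps13, a small subunit protein with higher abundance, held 22.1, 31.9, 23.8 and 17.5 FPKM in WT and 111.7, 51.8, 232.4 and 105.7 FPKM in cKO eggs. Its lowest cKO value still exceeded the highest WT value. Rpl7a, Rpl7 and Rpl22l1 of the large subunit had log2 differences of 2.40, 1.94 and 1.75, and Rps9 of the small subunit 1.62. Ribosomal protein genes have many processed pseudogenes, and the counting of reads shared with these copies is not given in the sources used here, so single values are uncertain. Rpl39, named by the study, had a log2 difference of 1.26 that did not pass (limma adjusted p = 0.0933), with 0.902 FPKM in cKO replicate 2 inside the WT range.

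Nuclear transcripts for mitochondria were higher as well, where 6.53% of all tested transcripts were called higher. In the respiratory chain, whose complexes carry electrons and make ATP, 21 of 74 tested transcripts rose, none fell, and the median log2 difference was 0.76. For the mitochondrial ribosome 15 of 69 rose with a median of 0.67, and for protein import 6 of 24 rose with a median of 0.66, with none lower in either list. The medians in cKO replicates 1 to 4 were 0.57, 0.32, 1.36 and 0.72 for the respiratory chain, so the direction was common and the size was not. Leaving out cKO replicate 3 left 15, 11 and 3 higher calls in the 3 lists, with medians of 0.56, 0.43 and 0.54, and leaving out WT replicate 3 left 0 in each.

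Uqcrb, a subunit of complex III, held 7.56, 7.07, 7.22 and 8.44 FPKM in WT and 22.8, 14.3, 48.5 and 29.3 FPKM in cKO eggs. The log2 difference was 1.79 (SE 0.31, limma adjusted p = 0.0225). Cyc1, the cytochrome of the same complex, and Ndufs7 and Ndufc1 of complex I had log2 differences of 1.84, 1.77 and 2.12. One cKO value of Ndufc1, 3.595 FPKM in replicate 2, lay below the highest WT value of 3.64 FPKM. Mrpl33, a protein of the large mitochondrial ribosomal subunit, held 0.977 to 1.17 FPKM in WT and 5.26, 1.85, 22.5 and 9.96 FPKM in cKO eggs, a log2 difference of 2.68. Mrpl28, Mrps6 and Mrps12 differed by 1.76, 1.46 and 1.43. Tomm40, the channel of the outer membrane and one of the transcripts the study named, held 1.21, 1.56, 1.51 and 0.637 FPKM in WT and 6.17, 2.26, 12.3 and 8.03 FPKM in cKO eggs. The log2 difference was 2.23 (SE 0.45, limma adjusted p = 0.031). Timm10b, Timm9 and Tomm7, other parts of the import machinery, differed by 1.20, 1.10 and 1.18. The enzymes of the citric acid cycle, a list chosen after values were seen, gave 6 of 17 higher and none lower. Among all tested transcripts 6.53% were called higher. A fit with the replicate number as a block gave 1 of the 17 higher. Mdh2, which makes oxaloacetate, was among the 6, with a log2 difference of 1.63.

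mRNAs encoded by the mitochondrial genome went the other way. Their list was chosen after values were seen, and 4 of its 10 tested members fell and none rose: ATP6, ND1, COX1 and ND2. Among all tested transcripts 1.49% were called lower. COX1, a subunit of complex IV, held 3685, 3575, 3621 and 3790 FPKM in WT and 2050, 2620, 2396 and 3233 FPKM in cKO eggs, a log2 difference of -0.53 (SE 0.13, limma adjusted p = 0.04). Each cKO library lay below each WT library, and cKO replicate 1 was lowest and cKO replicate 4 highest. ND1 of complex I fell by 0.57 and ND2 by 0.50, and ATP6 of the ATP synthase fell by 0.80 on the log2 scale. CYTB of complex III, at 7229 to 8034 FPKM in WT and 3210, 5203, 4795 and 6794 FPKM in cKO eggs, had a log2 difference of -0.66 that did not pass (limma adjusted p = 0.0654). ND4, ND5, ND6, COX2 and COX3 had log2 differences between -0.35 and -0.52 that did not pass. No member was called without cKO replicate 3. The ribosomal RNAs mt-Rnr1 and mt-Rnr2 had log2 differences of -0.19 and -0.26 that did not pass.

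The mRNAs and ribosomal RNAs of the mitochondrial genome together took 5.61% to 5.77% of summed FPKM in WT eggs and 3.06%, 4.26%, 3.79% and 4.93% in cKO replicates 1 to 4 (two-sided exact permutation test, p = 0.0286). These transcripts were chosen after their values in the same libraries were seen, so this p is a description and not a separate test. In the order of the cKO libraries the mitochondrial share did not follow the nuclear lists, in which replicate 3 was highest. GV oocytes held less of these mRNAs, with a mean of 1000 FPKM for COX1 in WT and 809 FPKM in cKO. COX1 and CYTB had GV log2 differences of -0.31 and -0.35 that did not pass (limma adjusted p = 0.39 and 0.328). The other mitochondrial mRNAs named here and tested at that stage were also below 0, from -0.20 for COX2 to -0.52 for ND6. For COX1 and CYTB the differences between stages, -0.22 and -0.31, did not pass (limma interaction, adjusted p = 0.568 and 0.546), so the stages were not shown to differ. A smaller mitochondrial share leaves a larger share to all other transcripts. With these transcripts left out and libraries rescaled, the respiratory chain list had 21 higher calls with a median of 0.69. The part of the mitochondrial share in the nuclear differences was not tested. COX3 was listed at only 1.16 to 1.65 FPKM in WT eggs, and levels are not compared between the mitochondrial mRNAs here.

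**Figure D3:**
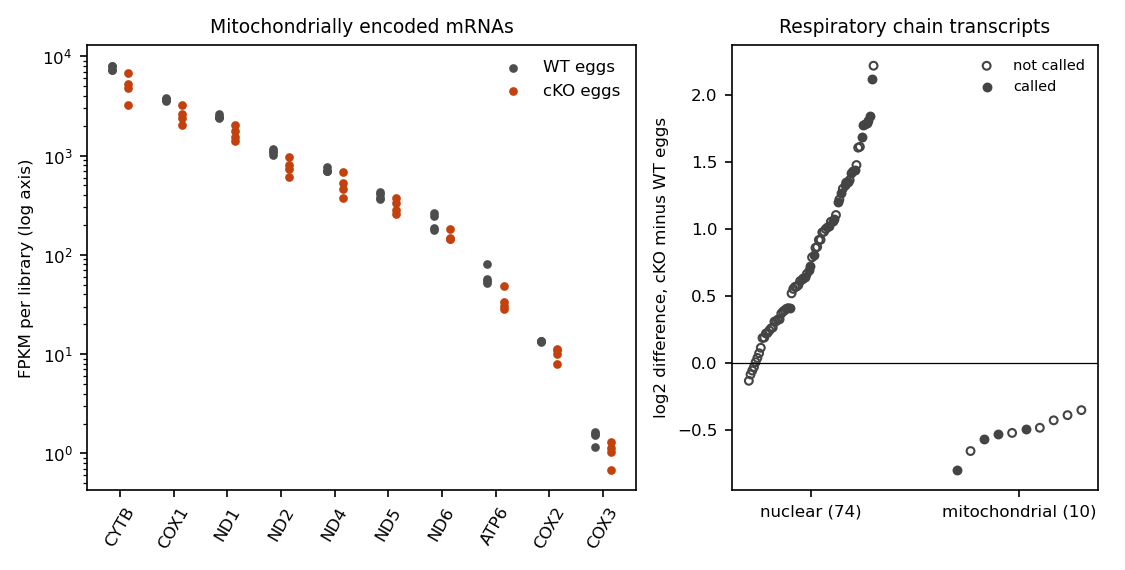
Left, FPKM on a log axis of 10 mitochondrially encoded mRNAs in 4 WT (grey) and 4 cKO (orange) egg libraries. Right, log2 difference of cKO minus WT eggs for 74 nuclear and 10 mitochondrial transcripts, filled where called by limma; most nuclear transcripts lie above 0 and all mitochondrial ones below it.

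Transcripts of the proteasome other than Psma7 were also higher, beside 6.53% called higher among all tested transcripts. In the 20S core, 5 of 13 tested transcripts rose, none fell, and the median log2 difference was 0.59. In the 19S particle 6 of 18 rose, none fell, all 18 differences were above 0 and the median was 0.45. The medians in cKO replicates 1 to 4 were 0.49, 0.43, 0.82 and 0.52 for the core and 0.43, 0.20, 0.78 and 0.40 for the 19S particle. Without cKO replicate 3, 4 and 5 members were called, and without WT replicate 3 none. The median transcript length was 1201 nt in the core list and 1983 nt in the 19S list. Of all tested transcripts of 1000 nt to under 2000 nt, 13.7% were called higher, with a median log2 difference of 0.25. The part of length in the proteasome results was not tested. Psmb7, the subunit with trypsin-like activity, held 7.499, 8.93, 7.27 and 8.04 FPKM in WT and 24.6, 14.0, 113.9 and 82.0 FPKM in cKO eggs. WT libraries lay close together here, and cKO replicates 3 and 4 stood well above cKO replicates 1 and 2. The log2 difference was 2.42 (SE 0.58, limma adjusted p = 0.0411). Psmb5, with chymotrypsin-like activity, differed by 1.72, the ring subunit Psmb4 by 1.88 and Psmb1 by 1.16, and Psma1 of the outer ring by 0.64. Psmd6 and Psmd8 of the 19S lid differed by 1.62 and 1.00, and the ATPase Psmc3 of its base by 0.80. Psmc2, another ATPase and the subunit named by the study, had a log2 difference of 0.39 that did not pass (limma adjusted p = 0.174). Of 13 activators and assembly chaperones, 3 rose, which were Psmg3 at 0.87, Psmd5 at 0.44 and Psmd9 at 0.29. None of those 3 was called without cKO replicate 3.

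Ubb, which encodes ubiquitin as a chain of repeats, was higher in cKO eggs. It held 517.9, 549.0, 514.9 and 716.9 FPKM in WT and 1161, 1019, 1448 and 1337 FPKM in cKO eggs. Every cKO library exceeded every WT library, and the log2 difference was 1.11 (SE 0.14, limma adjusted p = 0.0133). In GV oocytes Ubb averaged 4100 FPKM in WT and 3940 FPKM in cKO, and the log2 difference between genotypes was larger in eggs by 1.16 (limma interaction, adjusted p = 0.0112).

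Transcripts of egg surface proteins and other oocyte products were mixed. These lists are small, and 6.53% of all tested transcripts were called higher and 1.49% lower. In the list of zona pellucida and egg surface genes 3 of 13 rose and 1 fell, with a median of 0.31. Cd9, the tetraspanin needed for sperm and egg fusion, held 52.7, 51.5, 47.3 and 36.7 FPKM in WT and 157.7, 112.4, 166.5 and 102.0 FPKM in cKO eggs. Its log2 difference was 1.5 (SE 0.18, limma adjusted p = 0.0133), and 3 members of the list were called higher without cKO replicate 3, 0 without WT replicate 3, and 1 each without WT replicate 1 or WT replicate 4. Zp3, a glycoprotein of the egg coat and the gene whose promoter drives Cre in this model, held 406.5, 487.0, 411.2 and 321.0 FPKM in WT and 780.8, 721.6, 1314 and 974.2 FPKM in cKO eggs. The log2 difference was 1.20 (limma adjusted p = 0.0203). Izumo1r, the receptor for the sperm protein Izumo1, differed by 0.96. Trpm7, a channel for magnesium and calcium, fell by 0.49. Among transcription factors of the oocyte 3 of 15 rose, which were Figla at 1.57, Lhx8 at 0.92 and the first entry of Pou5f1 at 0.61, while the median was -0.10. Of the subcortical maternal complex, 2 of 14 rose, Khdc3 at 1.09 and Ooep at 0.53. Among growth factors and junction proteins of the follicle 2 of 6 rose, Fgf8 at 1.57 and the connexin Gja4 at 1.03.

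RNA-binding and spliceosomal transcripts were higher in part. Counts in this paragraph stand beside 6.53% called higher and 1.49% called lower among all tested transcripts. In lists of this size, counts such as 4 of 41 lie near that share and are not read as a result. Of 29 transcripts for Sm, LSM and related splicing proteins, 6 rose and none fell, among them Snrnp25 at 2.23, Lsm6 at 1.04 and Lsm3 at 0.97. Lsm6 held 2.79, 2.90, 2.83 and 2.55 FPKM in WT and 6.04, 5.03, 7.70 and 4.40 FPKM in cKO eggs. Among RNA polymerase and Mediator transcripts 4 of 41 rose, with Polr1d at 0.87 and Med28 at 0.70, and 1 fell. Among translation factors 5 of 37 rose, with Eif4h at 1.40 and Eif4a3 at 0.56, and Eif4g2 fell by 0.39. Redox enzymes gave 5 of 21 higher, with Gpx4 at 1.58, Prdx3 at 1.29 and Prdx5 at 1.20. Glycolysis and pyruvate use gave 5 of 17 higher, with Pkm at 1.04 and Gpi1 at 1.01 and 1 called without cKO replicate 3. Lysosomal and endolysosomal transcripts gave 4 of 30 higher, which were Atp6v0c, Atp6v0d1, Lamp1 and Atp6v1g1, with differences from 1.59 down to 0.34. Rufy1, which holds endolysosomal assemblies together, had a log2 difference of 0.17 that did not pass (limma adjusted p = 0.211). Clathrin and its adaptor complexes 1 and 2, a list chosen after values were seen, gave 7 of 12 higher and 1 without cKO replicate 3. Clta, a clathrin light chain, differed by 1.45.

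**Figure D4:**
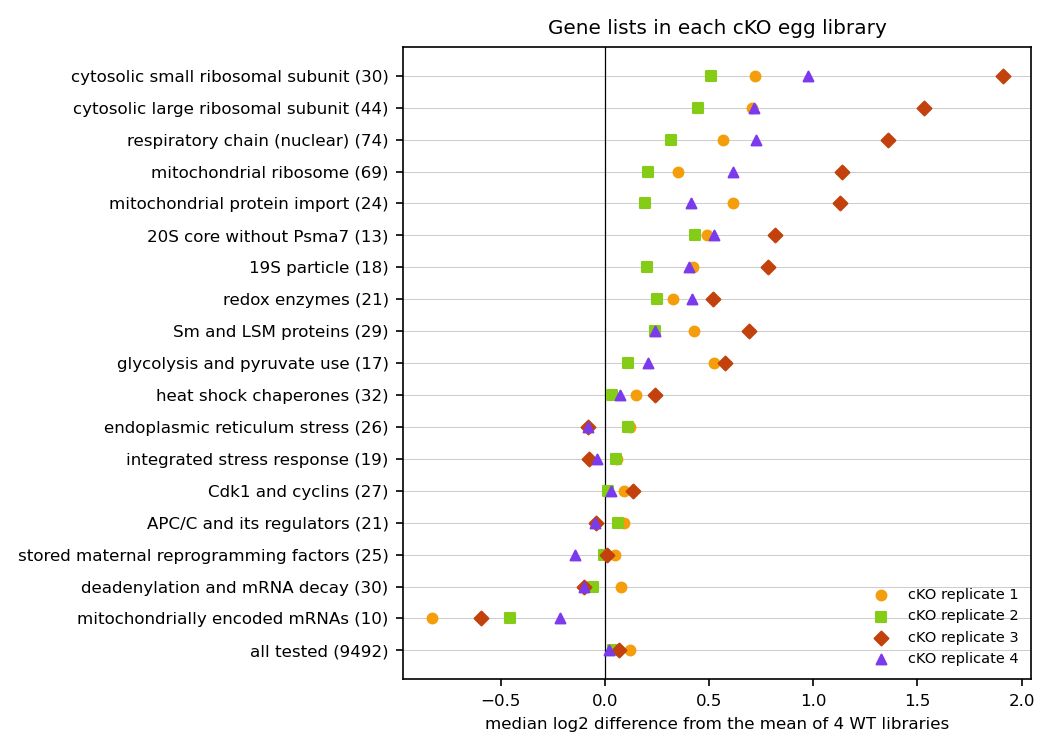
For 18 gene lists and for all tested transcripts, the median log2 difference of each cKO egg library from the mean of the 4 WT libraries, with the number of tested transcripts in parentheses and 1 symbol per cKO replicate. Ribosomal, mitochondrial and proteasome lists lie right of 0 in all 4 cKO libraries with replicate 3 (diamonds) farthest, and the mitochondrially encoded mRNAs lie left of 0 with replicate 1 (circles) farthest.

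Stress and cell death lists held few calls. Of 32 heat shock chaperones 1 rose, Dnaja1 at 0.60, and of 19 targets of the integrated stress response 1 rose, Phgdh, an enzyme of serine synthesis, at 1.98. Of 26 genes of endoplasmic reticulum stress 3 rose, Derl3 at 1.30, Pdia4 at 0.57 and Calr at 0.51, and the list median was -0.000766. Autophagy gave 1 of 28, Atg4b at 0.71. No member passed among 12 innate RNA sensing and interferon genes or 15 genes of apoptosis and p53. In these lists the most abundant members were Oas1d with a log2 difference of -0.14 and Bcl2l10 with -0.12. Shares of members called in the stress lists were near or below the 8.02% of all tested transcripts, apart from endoplasmic reticulum stress at 3 of 26.

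Transcripts of the meiotic cell cycle were mostly uncalled, beside 6.53% higher and 1.49% lower among all tested transcripts. Among Cdk1, cyclins and their regulators 1 of 27 rose, Ccno at 1.23. Ccnb1, cyclin B1, held 1025 to 1084 FPKM in WT and 964 to 1084 FPKM in cKO eggs, a log2 difference of -0.07 (SE 0.06, limma adjusted p = 0.492). Cdk1 held 0.848, 1.12, 0.635 and 0.690 FPKM in WT and 1.55, 1.12, 4.34 and 3.11 FPKM in cKO eggs, and its log2 difference of 1.10 did not pass (limma adjusted p = 0.0987). Of 21 transcripts of the APC/C, the ubiquitin ligase that ends metaphase, 2 rose, Anapc15 at 0.84 and Anapc4 at 0.31. Of 10 in the Mos and MAP kinase list none passed, and Mos, the kinase that holds the egg at metaphase, had a log2 difference of 0.27 (limma adjusted p = 0.193). Of 41 transcripts of the spindle checkpoint and kinetochore 1 rose, Birc5 at 0.60. Of 34 for the spindle and microtubules 4 rose and 1 fell. Tubb4b at 1.26, Tubb6 at 0.92, Stmn1 at 0.43 and the kinase Aurka at 0.42 were higher, and Ckap5, a microtubule polymerase, was lower at -0.33. Of 15 transcripts of the prophase arrest list, the second entry of Akap1, an anchor for protein kinase A, fell by 0.38. Tpx2 and Katnal1, spindle proteins the study named, had log2 differences of -0.15 and -0.42 that did not pass.

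Other transcripts among the 15 largest increases came from no single function. Commd9, a member of the COMM domain family, held 2.41, 3.14, 1.84 and 1.87 FPKM in WT and 11.0, 7.47, 23.6 and 13.2 FPKM in cKO eggs, a log2 difference of 2.48. Cyb5a, a cytochrome that passes electrons in the endoplasmic reticulum, held 14.9, 11.1, 9.56 and 17.8 FPKM in WT and 58.6, 32.6, 133.3 and 66.3 FPKM in cKO eggs. Upp1, which splits uridine, Hint1, a nucleotide hydrolase, and the predicted gene Gm36808 had log2 differences of 2.56, 2.27 and 2.41. Fth1, the ferritin heavy chain that stores iron, and Mael, a germ cell protein, were named after their values were seen and differed by 1.78 each. Of the transcripts named by the study, Gm9844 differed by 1.69 and Dppa4 by 1.39, and Dppa4 did not pass (limma adjusted p = 0.0598).

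The machinery that removes poly(A) tails and decays mRNA gave few calls. Of its 30 tested transcripts 3 fell, 0 rose and 27 did not pass, beside 1.49% lower and 6.53% higher among all tested transcripts, and the median was -0.06. Pan3, a subunit of a poly(A) nuclease, held 15.5, 14.6, 13.4 and 14.5 FPKM in WT and 11.2, 12.0, 11.0 and 11.3 FPKM in cKO eggs. The groups did not overlap, yet the log2 difference was only -0.35 (SE 0.08, limma adjusted p = 0.0373). The RNA helicase Ddx6 fell by 0.42 and its partner Lsm14a by 0.29. None of the 3 was called without cKO replicate 3. Btg4, the adaptor that brings the deadenylase to maternal mRNAs, held 2734 to 2965 FPKM in WT and 2369 to 2756 FPKM in cKO eggs, a log2 difference of -0.14 that did not pass (limma adjusted p = 0.234). Among mRNA storage and translation genes 2 of 25 rose and 1, Ddx6, fell. Cpsf4l, a germ cell homologue of a cleavage and polyadenylation factor and named by the study, held 6.42, 8.08, 7.83 and 5.65 FPKM in WT and 19, 12.1, 32.7 and 17.4 FPKM in cKO eggs, a log2 difference of 1.46. Cpsf4 differed by 0.97. Zar1 and Cpeb1, which hold stored mRNAs, had log2 differences of 0.29 and 0.57 that did not pass.

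The lower calls were few, mostly small, and longer in the median than tested transcripts in general. Shorter transcripts were among them, such as Psma7 at 1515 nt. The largest fall was that of the second table entry of Med11, a Mediator subunit, which held 42.1, 42.3, 38.1 and 30.7 FPKM in WT and 12.6, 4.49, 5.68 and 3.08 FPKM in cKO eggs. Its log2 difference was -2.76 (SE 0.37, limma adjusted p = 0.0149). The other Med11 entry held 0.0769 to 0.314 FPKM in WT and 0.153, 4.23, 3.09 and 3.16 FPKM in cKO eggs, so the split of fragments between the 2 entries also differed. Lcp2, an adaptor protein of immune cell signalling, held 12.9, 13.6, 9.08 and 10.7 FPKM in WT and 7.18, 3.91, 5.06 and 4.86 FPKM in cKO eggs, a log2 difference of -1.15. In GV oocytes its means were 3.26 FPKM in WT and 4.89 FPKM in cKO. Ccdc85a differed by -1.07, the transcription factor Foxp2 by -0.77, the cytochrome P450 Cyp20a1 by -0.75, Pigh, an enzyme that starts membrane anchors, by -0.83 and the RNA receptor Tlr8 by -0.87. Apart from Psma7 and ATP6, the remaining members of the 15 lowest were LOC108167785, 2610507I01Rik, Gm36212, Gm7759, Tmem150cos and Stxbp3-ps, which have no well-known role, with log2 differences from -1.41 to -0.81.

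Smaller falls touched regulators named here after their values were seen, apart from Setd2. The methyltransferase Setd2, a stored maternal factor that marks histone H3, held 16.9, 16.5, 14.1 and 15.7 FPKM in WT and 8.94, 11.9, 11.8 and 11.0 FPKM in cKO eggs, a log2 difference of -0.54 (limma adjusted p = 0.0332). It was the 1 called of 25 stored maternal reprogramming factors. The chromatin proteins Arid2, Taf4 and Kdm6a differed by -0.49, -0.39 and -0.27. Among ubiquitin enzymes, the ligases Nedd4 and Trip12 differed by -0.44 and -0.26, Arih1 by -0.44, the scaffold Cul4b by -0.38 and the deubiquitinase Usp34 by -0.43. Of 22 tested HECT ligases, a list chosen after values were seen, 3 fell, 3 had differences above 0, and the median was -0.21. Among all tested transcripts 1.49% were called lower, and among those of 5000 nt or more 3.52%. The median length in the HECT list was 5970 nt, and the part of length in these falls was not tested. Fmn2, the formin that builds actin for spindle migration, held 71.3, 68.1, 67.3 and 68.2 FPKM in WT and 45.4, 54.6, 56.3 and 56.4 FPKM in cKO eggs, a log2 difference of -0.38. The condensin subunit Smc4 differed by -0.29, the cytokinesis kinase Cit by -0.28, and the DNA repair protein Brca2 by -0.31. In signalling, the first entry of Mtor differed by -0.46, Apc by -0.40, Yap1 by -0.36, Jak1 by -0.32 and Hif1a by -0.25. Drosha, which cuts microRNA precursors, differed by -0.48.

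Higher calls were shorter and lower calls longer than tested transcripts in general. The longest annotated transcript had a median of 1937.5 nt for higher calls, 4978 nt for lower calls and 3128 nt for all tested transcripts, with lengths matched for 94.2%, 90.8% and 92.0% of them. Of 1605 transcripts of 1000 nt to under 2000 nt, 13.7% were called higher and 0.436% lower, whereas of 1792 transcripts of 5000 nt or more, 1.90% were called higher and 3.52% lower. The median log2 difference fell from 0.31 below 1000 nt to -0.09 at 5000 nt or more. Among transcripts under 1000 nt the medians in cKO replicates 1 to 4 were 0.23, 0.14, 0.54 and 0.25, and WT replicate 2 stood at 0.15 above the other WT libraries while WT replicate 3 stood at -0.11. The median lengths of the cytosolic ribosomal lists, 1054 and 1102 nt, and of the respiratory chain list, 1129 nt, lie in the classes with the most higher calls. Those of the 20S core, 1201 nt, the 19S particle, 1983 nt, and the mitochondrial ribosome, 1962 nt, lie there too. The part of length in the results of these lists was not tested. With the length trend removed by a smooth curve, 283 higher and 191 lower calls were made, 59.7% of them higher, and 6 large subunit, 8 small subunit and 12 respiratory chain transcripts were called higher, with medians of 0.56, 0.68 and 0.54. In that setting 1 small subunit transcript was called lower.

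**Figure D5:**
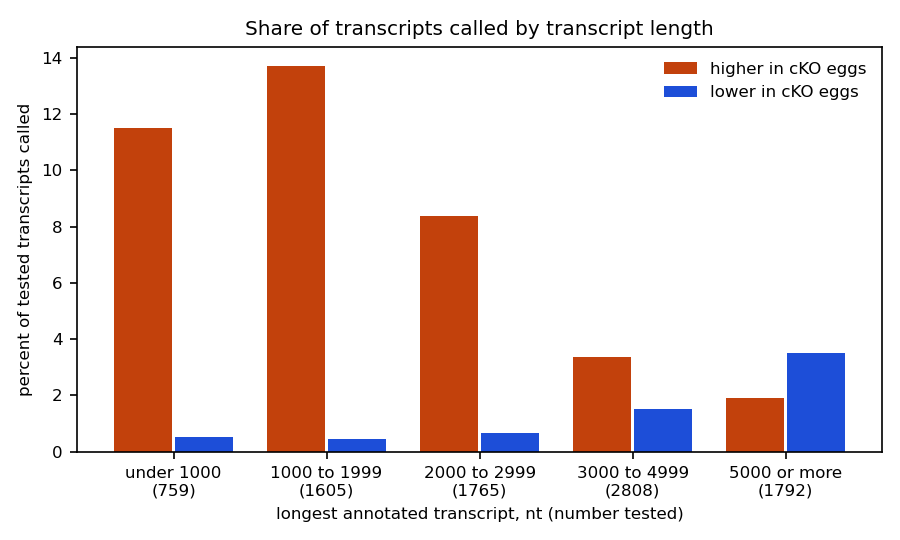
Percent of tested transcripts called higher (orange) or lower (blue) in cKO eggs by class of the longest annotated transcript in nucleotides, with the number tested in each class below it. Higher calls fall from 13.7% at 1000 nt to under 2000 nt to 1.90% at 5000 nt or more, and lower calls rise to 3.52%.

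Levels before maturation give the context of these calls, from GV libraries that took no part in choosing them. The 620 higher calls had a median of 33.3 FPKM in WT GV oocytes and 7.10 FPKM in WT eggs, and 35.4 FPKM in cKO GV oocytes and 14.3 FPKM in cKO eggs. The 141 lower calls had medians of 11.5 and 17.0 FPKM in WT GV oocytes and eggs, and 9.96 and 13.0 FPKM in cKO. All tested transcripts had 10.2 and 6.25 FPKM in WT. The egg libraries enter both the call and the egg medians. GV libraries were not in that fit, and there the higher calls were more abundant in both genotypes than tested transcripts in general. In cKO eggs the higher calls had a median of 14.3 FPKM against 7.23 FPKM for all tested transcripts, a contrast that the call itself widens. In WT eggs the medians were 7.10 and 6.25 FPKM. Whether being called is tied to abundance was not tested, and the GV medians are a description and not a separate test. For Zp3, GV means were 3980 FPKM in WT and 4150 FPKM in cKO, for Rps13 362 and 363 FPKM, and for Psmb7 300 and 279 FPKM. Speer5-ps1, a pseudogene of a multicopy family, had 406 and 456 FPKM in GV oocytes, 24.7, 21.6, 21.7 and 19.8 FPKM in WT eggs and 212.7, 105.6, 216.0 and 116.0 FPKM in cKO eggs.

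Few transcripts passed the test between genotypes at the GV stage. Among 11062 transcripts tested there, 13 (0.118%) passed limma's adjusted p of 0.05. All 620 higher and 137 of the 141 lower egg calls were tested in GV oocytes, where 1 of each passed, Mt1 at 7.36 and Psma7 at -3.51. The median GV log2 difference was 0.06 for the higher and -0.10 for the lower egg calls, against 0.03 for all transcripts tested in eggs. The difference between the stages was itself tested for named transcripts, which were chosen for their egg differences, so how many passed is not read as a result. For Rpsa the egg difference exceeded the GV difference by 2.86 (limma interaction, adjusted p = 0.00853), and for Lcp2 the stages differed by -1.78 (adjusted p = 0.028). For Psma7 and Mt1 the differences between stages were 1.68 and -1.48 and did not pass.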

How the data were processed

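RNA was measured by poly(A)-primed Smart-seq2 in pools of oocytes or eggs, with 4 libraries per genotype and stage that the labels call biological replicates. The deposited table holds FPKM values that the authors made per library with TopHat2 2.1.1 and Cufflinks 2.2.1 on mm10, as named in the submitters' processing notes. The annotation and the treatment of reads shared between copies are not given in the sources used here. ERCC spike-in entries were 0 in number, so no scaling to spike-ins was possible.

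FPKM is not a count, so no count test was run. Values below 1 FPKM were set to 1 and log2 transformed, entries that averaged 1 FPKM or more across the 8 egg libraries were kept, and limma 3.58.1 (R 4.3.3) with an intensity trend and Benjamini-Hochberg adjustment over all kept entries was used at 0.05. Fold changes are on this floored scale, which understates changes of low transcripts. A second rule took entries over 3-fold different between means of floored FPKM over all entries. The scripts were tested on simulated data. Library values were compared by two-sided exact permutation over 70 arrangements, with 0.0286 the smallest possible p. Depth was estimated from low values and limits what can be said near 1 FPKM. Names listed several times (579) were kept as separate entries.

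Named transcripts were Psma7, the 15 highest and 15 lowest calls without overlap between groups, up to 4 called members of each gene list (up to 2 abundant members where none was called), and transcripts the study names. Others, and the further called list members Psma1, Ckap5 and Eif4g2, were named after their values were seen, which also holds for 5 added lists: mitochondrially encoded mRNAs, mitochondrial ribosomal RNAs, citric acid cycle, clathrin and HECT ligases. The groups compared and the gene lists were chosen with earlier results of these data known. Positions are from GENCODE and RefSeq annotation of GRCm38. Alternatives covered the floor, the filter, scaling, the trend, weights, the libraries fitted, summed entries and each replicate left out. Removal of the length trend and leaving out mitochondrially encoded transcripts were added after seeing the data. Some transcripts that met these rules are not reported here.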

Additional observations from a re-analysis of the deposited data

Results flagged for a closer look

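For 29 named transcripts the genotype difference in eggs differed from that in GV oocytes by the limma interaction, at an adjusted p below 0.05. These transcripts were mostly named for their egg differences, so their number is not a result. The value is the egg difference minus the GV difference on the log2 scale. Among ribosomal protein transcripts it was 2.862 for Rpsa, 2.249 for Rps13 and 1.816 for Rpl22l1. For mitochondrial proteins it was 1.729 for Uqcrb, 2.096 for Tomm40 and 1.607 for Mdh2. For proteasome and ubiquitin genes it was 1.584 for Psmd6, 0.8737 for Psmd8 and 1.163 for Ubb. For egg and oocyte genes it was 1.46 for Cd9, 1.137 for Zp3 and 1.679 for Figla. For RNA processing and transcription it was 1.025 for Lsm6, 1.161 for Lsm3, 1.37 for Cpsf4l, 0.7247 for Polr1d and 0.733 for Med28. It was 2.655 for Speer5-ps1, 2.386 for Commd9, 2.364 for Gm36808, 2.233 for Cyb5a, 2.369 for Hint1, 1.128 for Tubb6, 0.6598 for Dnaja1, 1.795 for Phgdh and 1.488 for Atp6v0c. It was negative for Lcp2 at -1.781, Ccdc85a at -1.228 and Tmem150cos at -0.8248.

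A single library lay far from the other 3 of its group in 24 of 354 groups examined, and chance alone gives about 1 in 20. In WT eggs the outlying value was the highest for Gm36808 (2.70 FPKM), Hint1 (1.90), Tmem150cos (2.553), Anapc15 (4.759), Ooep (1738) and ND1 (2625) in replicate 2, for Map2k1 (80.51), Lmna (4.898) and Zar1 (376.7) in replicate 3, for Ubb (716.9) in replicate 4, and for Lyz2 (8.876), ND4 (766.9) and Kdm6a (45.15) in replicate 1. It was the lowest for Rpl7 (1.685 FPKM) in WT replicate 2, Foxp2 (3.055) and Derl3 (2.55) in WT replicate 4, and COX2 (13.13) in WT replicate 1. In cKO eggs it was the highest for Psmb1 (26.68 FPKM) and Psmc3 (13.86) in replicate 3, ND6 (181.0) in replicate 4 and Lyz2 (0.9667) in replicate 1. It was the lowest for Tcstv3 (18.93 FPKM), Fmn2 (45.42) and Usp34 (14.52) in cKO replicate 1.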

How the results depend on the processing

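Of the 141 named transcripts that passed limma's threshold, 3, Mt1, Rpsa and Speer5-ps1, also passed it in all 20 alternatives. None changed direction, which the lack of overlap between groups largely fixes. The number of calls varied. Leaving out 1 library gave 3 to 1024 higher and 0 to 136 lower calls, against 620 and 141, and the cause was not tested. Without the low-value filter 974 higher and 77 lower calls were made, with all 16 libraries in the fit 1328 and 254, and with the length trend removed 283 higher. Lower calls numbered 259 after median-ratio rescaling, 86 without the intensity trend and 319 with mitochondrially encoded transcripts left out and libraries rescaled, 2 changes made together. The 3-fold rule gave 496 higher and 46 lower entries with a floor of 0.1 FPKM, 100 higher with 1 FPKM added, 109 higher from geometric means, 4 lower after median-ratio rescaling, and 565 and 15 at 2-fold. Leaving out 1 library gave 62 to 262 higher and 2 to 4 lower. A fit with the replicate number as a block gave 101 higher and 7 lower calls. Same-numbered WT and cKO libraries had correlations of their deviations of 0.0523, -0.0741, -0.176 and 0.288. Of the 4 cKO libraries, 1 correlated best with its own number. The labels give same-numbered samples only a shared number, and so few libraries cannot decide whether they are paired. The main fit treats them as unpaired.

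Directions reversed only for 7 named transcripts that had not passed. Oas1e was -0.1256 with the length trend removed. With 1 library left out in turn, Chek1 ranged from -0.07435 to 0.000969, Cyp19a1 from -0.03361 to 0.07976, Kitl from -0.06066 to 0.1815, Cd68 from -0.3136 to 0.248, Kit from -0.02493 to 0.07491 and Tardbp (entry 1) from -0.1357 to 0.03824. After median-ratio rescaling Cyp19a1 was -0.05124 and Kit -0.05058, and with mitochondrially encoded transcripts left out they were -0.05153 and -0.05087. With the length trend removed Cyp19a1 was -0.1445 and Tardbp (entry 1) 0.04019. Cd68 was 0.005877 with 1 FPKM added and 0.05288 with array weights. Values near 1 FPKM rest on few fragments, and transcripts set to the floor in all WT libraries have understated differences.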

Other observations

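Some gene names listed several times in the table differed between cKO replicate 1 and the other cKO libraries; these were chosen after their values were seen. The second entry of C87977 held 0.842, 0.750, 0.345 and 0.416 FPKM in WT and 0.597, 51.3, 18.9 and 66.7 FPKM in cKO eggs. Its log2 difference of 4.00 was the largest that did not pass (limma adjusted p = 0.0591). The first entry of Med11 held 0.153 FPKM in cKO replicate 1 and 4.23, 3.09 and 3.16 FPKM in cKO replicates 2 to 4. The second entry of Tardbp, an RNA-binding protein, held 0.0610 to 0.101 FPKM in WT and 0.0914, 0.683, 0.359 and 0.694 FPKM in cKO eggs. The second entry of Mtor, a growth kinase, was listed at 0 in all WT libraries and in cKO replicate 1, and held 0.237, 0.0432 and 0.496 FPKM in cKO replicates 2 to 4. In each of these, cKO replicate 1 lay close to or within the WT range.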
